A study of Mus musculus with 16 samples.

Results

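GM-noTC cells are bone marrow derived macrophages (BMDMs) grown with GM-CSF on noTC dishes, whose plastic lacks the hydrophilic treatment of tissue culture (TC) dishes, and the values below describe how their mRNA levels changed upon LPS challenge. The response was measured in 4 of the 16 libraries of the series, which were chosen by their labels. They are 2 GM-noTC libraries (vehicle, steady state) and 2 GM-noTC-LPS libraries (100 ng/ml LPS for 3 h). All groups came from bone marrow of C57BL/6J mice aged 8 weeks, and the GM cells had been kept for 7 days in 20 ng/ml GM-CSF. The same LPS challenge of GM cells on TC dishes (GM-TC) and of cells grown with 50 ng/ml M-CSF on noTC dishes (M-noTC), with 4 other libraries each, served for comparison. Of the 22287 genes in the deposited table, 12514 had enough counts to be tested. The replicates are called biological, but whether they came from separate mice is not given, so the p-values measure only the spread between these samples. GM-CSF cultures of bone marrow hold several CD11b and MHCII populations, and in such bulk RNA fewer cells of a type and less RNA per cell cannot be told apart.

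LPS, a glycolipid of the outer membrane of Gram-negative bacteria, is handed by CD14 to the receptor TLR4 and its partner Ly96. One branch of the signal runs through the adaptor MyD88 to NFκB and the MAP kinases, which switch on cytokine and chemokine genes, and the other runs through the adaptor Ticam1 (TRIF) to IRF3, which switches on interferon β. Secreted interferon β then acts through STAT2 and IRF9 on the interferon stimulated genes (ISGs). GM-CSF itself instructs macrophages through STAT5 and, in the lung, through PPARγ.

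The 2 GM-noTC libraries held 21785799 and 24040524 counts and the 2 GM-noTC-LPS libraries 26566735 and 27820352. Levels are given in CPM, which are library proportions after scaling with edgeR's TMM factors, and a floor of 3 counts in 1 library corresponds to between 0.108 and 0.138 CPM before that scaling. This floor, like the intervals below, covers counting error only. The replicates of each group had Spearman correlations across genes of 0.998 and 0.997, and the biological coefficient of variation over all groups was 4.75%. The macrophage label was set beside 13 tested macrophage markers, which as a sum cannot tell macrophages from other myeloid cells. Before TMM scaling their summed level was 48372 and 48113 CPM at steady state and 39984 and 40358 CPM upon LPS challenge. The lower sums upon LPS challenge belong to that scale, since the median log2 fold change of these markers was 0.27 with TMM scaling and -0.24 with library totals only. Of the defining markers of other cells, Cd3e, Cd3g, Ncr1, Gzma, Alas2, Tpsb2 and Cma1 had 0 counts in all 4 libraries, but other members of the same lists had counts. Before TMM scaling the T and NK cell markers summed to 2.16 and 1.96 CPM at steady state. The erythroid and megakaryocyte markers summed to 30.8 and 31.7 CPM there, and the mast cell markers are given below. Mitochondrial transcripts took 6.95% and 7.09% of the counts at steady state and 6.30% and 6.06% upon LPS challenge.

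Upon LPS challenge, 1644 genes were upregulated (13.1% of the genes tested) and 1581 were downregulated (12.6%), with a fold change above 2 and an adjusted p under 0.05 in edgeR's quasi-likelihood test. These are the differentially expressed genes (DEGs) in what follows. The large changes were mostly increases, since 430 genes rose and 139 fell more than 8-fold, and 101 rose and 14 fell more than 64-fold. The upregulated DEGs together went from 8.05% and 8.06% of all counts to 29.3% and 29.2%, while the downregulated DEGs went from 4.96% and 4.91% to 1.16% and 1.18%. Over the 12514 tested genes the log2 fold change had a median of -0.034 with TMM scaling and -0.54 when libraries were scaled by their totals only, which turned the counts into 1086 upregulated and 3320 downregulated DEGs. The medians of gene lists below stand against the -0.034 of all genes, and the counts of list members against 13.1% upregulated and 12.6% downregulated. List counts with library totals only stand against 1086 and 3320 of the 12514 genes. Of the upregulated genes described below, Ly96, Myd88, Fosl2, Hk2, Mad2l1, Lcp1 and Msn did not pass the 2-fold limit with library totals only, besides those where this is said. The values of the LPS and steady state libraries did not overlap for 10538 genes (84.2% of those tested), and so the absence of overlap alone says little about a gene. With 2 libraries against 2, an exact permutation test of a single gene cannot go below p = 0.333, and the tests rest on the spread shared across genes and groups.

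**Figure D1:**
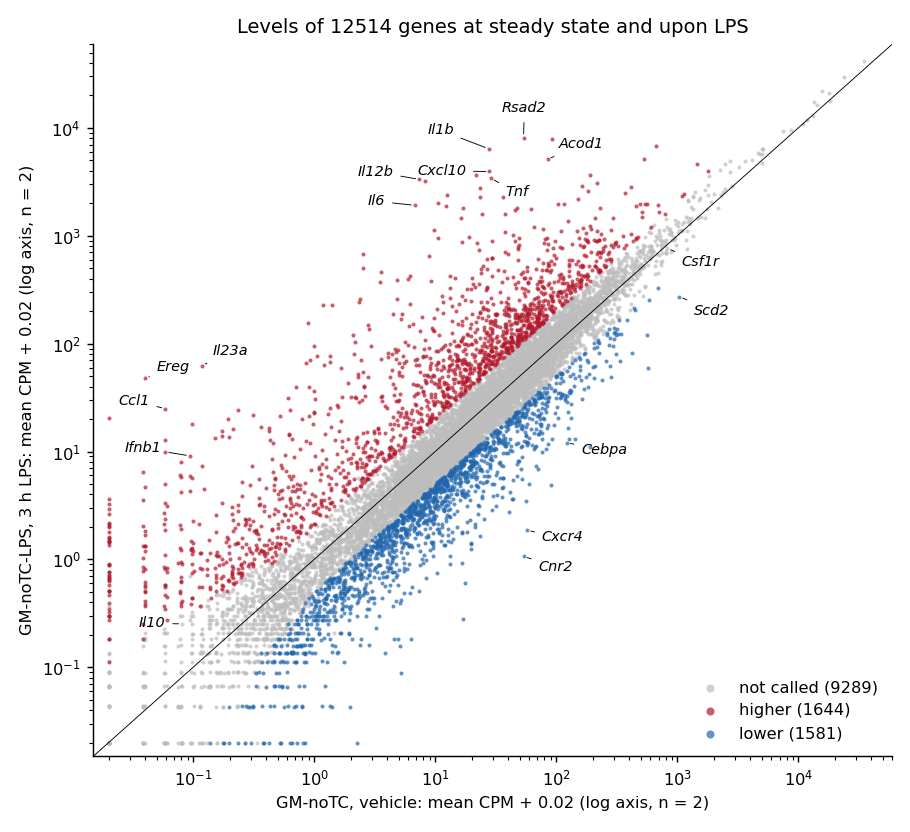
Mean level of each of the 12514 tested genes in GM-noTC (x axis) and GM-noTC-LPS (y axis), in CPM plus 0.02 on log axes (n = 2 libraries each). Upregulated DEGs (1644, red) reach more than 64-fold above the line of equal levels, and downregulated DEGs (1581, blue) lie closer to it, with 9289 genes in grey that were not called.

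Most DEGs were at 1 CPM or more at steady state, and 401 upregulated and 157 downregulated genes were below it. There were 41 genes that went from under 1 CPM to 10 CPM or more, among them the cytokine genes Il23a, Il12a, Lif, Lta, Edn1 and Ereg. The opposite course, from 10 CPM or more to under 1 CPM, was taken by 5 genes, C130050O18Rik, Mrgpre, Fbxo31, Arrdc3 and Ankrd63. Fbxo31, for a ubiquitin ligase subunit, was named here after its values were seen. Of the 41 genes, 4 had started from 3 counts or fewer over both steady state libraries, and they were Ccl1, Mefv, Ereg and Gm20388. Gm20388 had 0 counts in both steady state libraries and was at least 349-fold higher upon LPS challenge, set against 3 counts over the group. It is a gene model that overlaps 209 other genes in GENCODE M21 and was at 0 in 5 of the 16 libraries, in 4 groups, so its value is uncertain. Of the 72 genes at 1000 CPM or more at steady state, 4 were upregulated and 1 was downregulated. They were the chemokine gene Ccl9, the actin binding genes Lcp1 and Msn and fibronectin (Fn1) on one side, and the desaturase gene Scd2 on the other, and Ccl9, Lcp1 and Msn were likewise named after their values were seen.

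A feature of the GM-noTC libraries at steady state bears on the size of the strongest responses. Among the 1908 genes with a mean of 100 CPM or more in the 10 libraries other than GM-noTC and the steady state TC libraries, none was below 0.584% of that mean in GM-noTC, whereas 28 genes were below that share in GM-TC. Over 15 genes that were under 1 CPM in GM-TC, the excess in GM-noTC amounted to a median share of 0.675% of their average level in those libraries (range 0.390% to 0.907%). Reads carried over from other libraries and low transcription at steady state cannot be told apart in these counts. An alternative fit therefore subtracted this share from every gene of the GM-noTC libraries, with 0.600% taken likewise from the M-noTC libraries. In M-noTC the excess varied more, from 0.00840% to 1.70% over 21 genes, so comparisons with M-noTC cells after this step are less certain. This alternative fit is called the subtraction below. It left the number of DEGs nearly the same (1655 upregulated and 1583 downregulated) but raised the log2 fold change of genes with few steady state reads, and its value is given beside the log2 fold changes described below that it moved by more than 1.5-fold. No counts were left by it in either GM-noTC library for Il23a, Il27, Csf2, Ereg, Ccl1 and Mefv, so no fold is given for them there, and those of Il12b, Il6 and Cxcl10 rest on the one library in which counts were left.

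Cytokine genes were among those that rose most. Of 46 tested cytokine genes, 32 were upregulated and 5 downregulated, the median log2 fold change was 3.95, against -0.034 over all genes, and their share of all counts went from 0.149% and 0.150% to 2.47% and 2.45%. Tnf (ENSMUSG00000024401), the early pyrogenic cytokine, had 25.8 and 31.97 CPM in GM-noTC and 3331 and 3482 CPM in GM-noTC-LPS. Il1b (ENSMUSG00000027398), which encodes pro-interleukin 1β, had 27.8 and 27.3 CPM in GM-noTC and 6399 and 6422 CPM in GM-noTC-LPS. Il6 (ENSMUSG00000025746), which encodes the cytokine that drives the acute phase response, had 6.03 and 7.50 CPM in GM-noTC and 1957 and 1877 CPM in GM-noTC-LPS. All 3 genes were low in both steady state libraries and high in both LPS libraries, without overlap. Their log2 fold changes were 6.88 ± 0.083 for Tnf (adjusted p = 9.11e-25, edgeR), 7.86 ± 0.083 for Il1b (adjusted p = 1.22e-25, edgeR) and 8.14 ± 0.12 for Il6 (adjusted p = 2.98e-23, edgeR). After the subtraction they were 8.27, 9.03 and 11.99. Il1a, for the second interleukin 1, had 90.3 and 92.9 CPM in GM-noTC and 7931 and 7859.8 CPM in GM-noTC-LPS, a change of 6.43 ± 0.095 on the log2 scale (adjusted p = 1.56e-23, edgeR).

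The shared p40 subunit of interleukins 12 and 23 (Il12b) had 6.77 and 7.95 CPM in GM-noTC and 3422 and 3245 CPM in GM-noTC-LPS. The p19 subunit of interleukin 23 (Il23a) had 0.122 and 0.0739 CPM in GM-noTC and 65.5 and 59.4 CPM in GM-noTC-LPS. Both subunit genes were thus near or below 10 CPM at steady state and rose with small differences between replicates, with log2 fold changes of 8.82 ± 0.12 (adjusted p = 2.46e-23, edgeR) and 9.26 ± 0.21 (adjusted p = 8.44e-19, edgeR). After the subtraction that of Il12b was 13.05, and the 3 and 2 counts of Il23a at steady state leave its fold imprecise. Il12a, for the p35 subunit, rose by 6.44 and Il27, for a related cytokine, by 7.60 on the log2 scale. Tnfsf15, which encodes the TNF family ligand TL1A, had 8.23 and 8.06 CPM in GM-noTC and 3224 and 3208 CPM in GM-noTC-LPS, with a log2 fold change of 8.62 ± 0.11 (adjusted p = 1.99e-24, edgeR), or 11.06 after the subtraction.

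Growth factor genes took part. Ereg, which encodes the EGF receptor ligand epiregulin, had 1 count over both steady state libraries and 48.1 and 47.5 CPM upon LPS challenge, a ratio of 2347 with a 95% counting interval from 421 to 92740. Csf2 is the gene of GM-CSF, the factor in which the cells had been grown. It had 2 counts over both steady state libraries and 422 upon LPS challenge, a ratio of 252 with a 95% counting interval from 69.3 to 2085. Csf3, for G-CSF, had 0 counts in both steady state libraries and was at least 34.2-fold higher upon LPS challenge, set against 3 counts over the group. Csf1, for M-CSF, rose by 2.85 on the log2 scale. Among the genes that fell were Il16, a chemoattractant for CD4 cells (log2 fold change -3.997), the growth factor genes Pdgfa (-2.33) and Vegfa (-1.94), Tnfsf14 (-1.31) and Gdf15 (-1.26). Il10, for the anti-inflammatory cytokine, had 3 counts over both steady state libraries and 10 over both LPS libraries, a ratio of 3.80 with a 95% counting interval from 0.979 to 21.5, and was not called (adjusted p = 0.0758, edgeR). Its change could not be resolved at this depth. Without GM-noTC replicate 1 Il10 was called, with a fitted log2 fold change of 5.51, and after the subtraction it was called with 3.27.

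**Figure D2:**
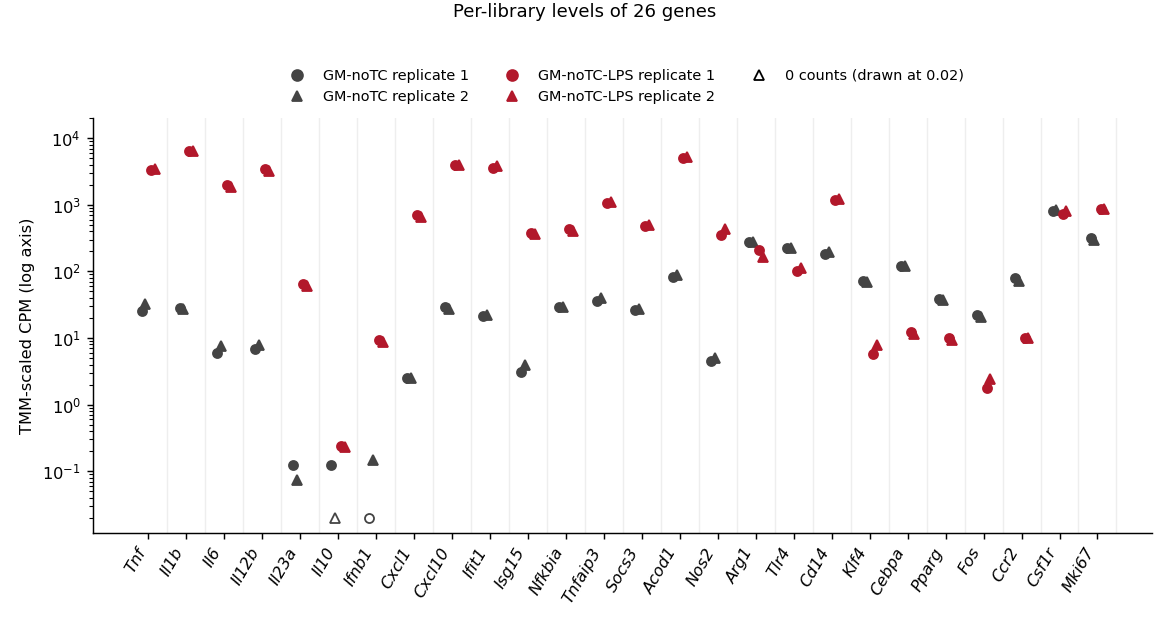
Level of 26 genes in each of the 4 libraries (y axis, CPM, log axis), with circles and triangles for replicates 1 and 2 and open symbols for 0 counts drawn at 0.02. The red LPS symbols stand above the grey steady state symbols from Tnf to Nos2 and for Cd14 and Mki67, below them for Arg1, Tlr4 and from Klf4 to Ccr2, and close to them for Csf1r.

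The chemokine genes rose without exception among those called, 19 of 26 tested, with a median log2 fold change of 3.25 and 0 downregulated. The neutrophil attractants Cxcl1, Cxcl2 and Cxcl3, ligands of the receptor CXCR2, form a cluster on chromosome 5. Cxcl1 (ENSMUSG00000029380) had 2.49 and 2.51 CPM in GM-noTC and 712 and 658 CPM in GM-noTC-LPS, a change of 8.09 ± 0.14 on the log2 scale (adjusted p = 3.99e-22, edgeR). Cxcl2 had 10.9 and 10.1 CPM in GM-noTC and 2109 and 1902 CPM in GM-noTC-LPS, and Cxcl3 had 11.2 and 13.8 CPM in GM-noTC and 2455 and 2331 CPM in GM-noTC-LPS. In each of these genes both LPS libraries exceeded both steady state libraries by more than 100-fold, and the log2 fold changes of Cxcl2 and Cxcl3 were 7.58 ± 0.10 and 7.57 ± 0.11 (adjusted p = 4.72e-24, edgeR, and adjusted p = 1.18e-23, edgeR). After the subtraction the 3 log2 fold changes were 11.37, 9.85 and 8.22. The monocyte attractants Ccl2 and Ccl7 rose by 3.34 and 4.04, and the inflammatory chemokine genes Ccl3 and Ccl4 by 3.82 and 5.24 on the log2 scale. Ccl1, a ligand of CCR8, had 2 counts over both steady state libraries and 30.4 and 19.5 CPM upon LPS challenge, a ratio of 642 with a 95% counting interval from 177 to 5308. Ccl6, Ccl8, Ccl24, Cxcl12, Cxcl14, Pf4 and Ppbp, with log2 fold changes between -0.21 and 1.52, were not called.

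The bases just upstream of the 3 neutrophil attractants are shown because all 3 hold a κB type motif, the kind of element that NFκB binds. The windows hold the last 130 bases before the RefSeq start on GRCm38.p6, all on the plus strand, at chr5:90891115-90891244, chr5:90903769-90903898 and chr5:90785971-90786100. Capitals mark GGGNNTTTCC on either strand.
Cxcl1: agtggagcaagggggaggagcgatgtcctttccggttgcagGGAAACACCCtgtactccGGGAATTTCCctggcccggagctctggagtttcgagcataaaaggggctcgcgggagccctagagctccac
Cxcl2: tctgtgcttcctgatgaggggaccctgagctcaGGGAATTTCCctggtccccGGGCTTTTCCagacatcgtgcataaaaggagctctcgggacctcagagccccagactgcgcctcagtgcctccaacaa
Cxcl3: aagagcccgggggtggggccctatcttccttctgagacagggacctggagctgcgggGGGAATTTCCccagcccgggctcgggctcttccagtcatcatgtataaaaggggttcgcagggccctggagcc
The motif begins 89 and 71 bases before the start in Cxcl1, 97 and 78 bases before it in Cxcl2, and 73 bases before it in Cxcl3. Within the 250 bases before the start, this motif was present in 1.65% of the 27025 genes with a window. Among the genes of NFκB subunits and inhibitors, 13 of 16 had a window and 5 of these held the motif (38.5%). No other list had a higher share. It was 12% for inflammasome and cell death genes, 0% for DNA replication genes and 1.82% for the tested genes with a window. A match describes the letters only and is not evidence of binding.

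The receptor side changed less than its products. In the list of LPS receptor and proximal signalling genes, 9 of 28 were upregulated and 1 was downregulated, and the median log2 fold change of 0.42 became -0.09 with library totals only. Tlr4 itself had 222 and 224 CPM in GM-noTC and 103 and 115 CPM in GM-noTC-LPS, and its log2 fold change was -1.04 ± 0.066 (adjusted p = 4.61e-12, edgeR), which just passed the 2-fold limit and no longer did without GM-noTC-LPS replicate 1 (-0.96). The coreceptor gene Cd14 had 183 and 195 CPM in GM-noTC and 1196 and 1242 CPM in GM-noTC-LPS, a change of 2.69 ± 0.060 on the log2 scale (adjusted p = 2.63e-20, edgeR). The LPS libraries were thus lower for the receptor and higher for the coreceptor, in both replicates. Ly96 rose by 1.03 and Myd88 by 1.38, and the kinase gene Map3k8 (TPL2) by 2.70 on the log2 scale. Among genes that restrain or modify the signal, the ubiquitin ligase gene Peli1 rose by 4.36 and Irak3, for the inhibitory IRAK-M, by 2.49. Ticam1, Irak1, Traf6 and Map3k7, with log2 fold changes between -0.19 and 0.24, were not called.

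NFκB genes and their inhibitors rose nearly as a whole, 14 of 16 upregulated and 0 downregulated, with a median log2 fold change of 2.76. Nfkbia (ENSMUSG00000021025), which encodes the inhibitor IκBα, had 29.6 and 29.7 CPM in GM-noTC and 434 and 406 CPM in GM-noTC-LPS, and its log2 fold change was 3.82 ± 0.067 (adjusted p = 2.87e-22, edgeR). Tnfaip3, which encodes the deubiquitinase A20, had 36 and 39.6 CPM in GM-noTC and 1082 and 1108 CPM in GM-noTC-LPS, a change of 4.85 ± 0.066 on the log2 scale (adjusted p = 4.92e-24, edgeR). Both inhibitors were higher in each LPS library than in either steady state library. Nfkbiz, for the coactivator IκBζ, rose by 6.21 ± 0.080 (6.87 after the subtraction), and the subunit genes Nfkb1, Nfkb2, Rel, Relb and Rela by between 1.82 and 3.62 on the log2 scale. Cyld and Tnip2 were not called.

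Of 23 feedback inhibitors, 13 were upregulated and 3 downregulated. Socs3, an inhibitor of cytokine receptor signalling, had 26.5 and 26.8 CPM in GM-noTC and 476 and 498 CPM in GM-noTC-LPS, with a log2 fold change of 4.19 ± 0.066 (adjusted p = 5.00e-23, edgeR), and Socs1 rose by 3.59. The RNase gene Zc3h12a (Regnase-1) rose by 3.98 and Il1rn, for the interleukin 1 receptor antagonist, by 2.75 on the log2 scale. Among the MAP kinase phosphatases Dusp16, Dusp2 and Dusp5 rose by 2.56, 2.39 and 1.53, whereas Dusp6 fell by 2.02 on the log2 scale. Dusp14 had 2 counts over both steady state libraries, and its ratio of 47.2 has a 95% counting interval from 12.6 to 397. Dusp1, with a log2 fold change of 0.27, was not called.

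The immediate early genes had come apart by 3 h. In this list 10 of 23 genes were upregulated and 4 downregulated, with a median log2 fold change of 0.68. Fos (ENSMUSG00000021250) had 21.9 and 21.03 CPM in GM-noTC and 1.75 and 2.42 CPM in GM-noTC-LPS, a change of -3.36 ± 0.15 on the log2 scale (adjusted p = 9.09e-15, edgeR). Egr2, a zinc finger factor, had 127 and 122 CPM in GM-noTC and 16.8 and 16.01 CPM in GM-noTC-LPS, and its log2 fold change was -2.93 ± 0.080 (adjusted p = 8.35e-19, edgeR). Both of these early response factors were below their steady state level in both LPS libraries. Egr1 fell by 1.23 on the log2 scale, Jun was not called (-0.47), and Junb, Fosl2 and Maff rose by 1.99, 1.14 and 3.17. The orphan nuclear receptor gene Nr4a3 rose most in the list, by 4.997 ± 0.10 (adjusted p = 3.54e-21, edgeR), and Nr4a1 and Nr4a2 by 2.13 and 2.55 on the log2 scale.

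The ISGs rose almost completely, and the genes upstream of them in part. Of 73 tested ISGs 71 were upregulated and 0 downregulated, with a median log2 fold change of 4.03, and their share of all counts went from 0.327% and 0.337% to 3.86% and 3.84%. Ifnb1 (ENSMUSG00000048806), the gene of interferon β, had 0 and 0.148 CPM in GM-noTC and 9.33 and 8.85 CPM in GM-noTC-LPS, a change of 6.78 ± 0.39 on the log2 scale (adjusted p = 7.17e-13, edgeR), which rests on 4 steady state counts. Ifit1 (ENSMUSG00000034459), which encodes a protein that binds viral RNA, had 21.5 and 21.95 CPM in GM-noTC and 3571 and 3761 CPM in GM-noTC-LPS, and its log2 fold change was 7.40 ± 0.062 (adjusted p = 4.66e-27, edgeR). Rsad2, for the antiviral enzyme viperin, had 54.3 and 53.1 CPM in GM-noTC and 8188 and 8073 CPM in GM-noTC-LPS, a change of 7.24 ± 0.075 on the log2 scale (adjusted p = 1.02e-25, edgeR). Cxcl10, the CXCR3 ligand, had 29.3 and 26.9 CPM in GM-noTC and 3972 and 3922 CPM in GM-noTC-LPS, and its log2 fold change was 7.14 ± 0.077 (adjusted p = 1.53e-25, edgeR). All of these genes were low at steady state and high in both LPS libraries, and the subtraction raised the log2 fold changes of Ifit1, Rsad2 and Cxcl10 to 9.26, 9.51 and 12.45. Rsad2 gained more CPM than any other tested gene. Ifitm3 and Gbp8, at 0.94 and -0.86, were the exceptions, and with library totals only Gbp8 was called as downregulated. Many members of the Ifit, Oas, Gbp and Slfn families are near copies, so the split of reads between them is uncertain.

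Of 24 genes of interferons, IRF and STAT factors 11 were upregulated and 0 downregulated, or 9 upregulated with library totals only. Irf7, which amplifies interferon production, rose by 5.22 ± 0.11 (adjusted p = 9.56e-21, edgeR), with 5.85 after the subtraction. Irf1 rose by 4.40 ± 0.057 and Stat2 by 3.09 ± 0.058 on the log2 scale, and Irf3, whose protein is activated without new transcription, was not called (0.017). The upstream windows of 3 members are shown because they hold the motif GAAANNGAAA, the core of the element that STAT and IRF factors bind. They lie at chr19:34640759-34640888 on the plus strand, chr4:156200819-156200948 on the minus strand and chr5:92348890-92349119 on the minus strand (RefSeq, GRCm38.p6), with the motif on either strand in capitals.
Ifit1: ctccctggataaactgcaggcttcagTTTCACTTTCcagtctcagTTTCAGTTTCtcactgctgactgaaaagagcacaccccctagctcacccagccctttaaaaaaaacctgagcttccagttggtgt
Isg15: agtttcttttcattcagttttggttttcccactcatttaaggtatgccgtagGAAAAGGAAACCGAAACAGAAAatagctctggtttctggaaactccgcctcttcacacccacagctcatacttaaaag
Cxcl10: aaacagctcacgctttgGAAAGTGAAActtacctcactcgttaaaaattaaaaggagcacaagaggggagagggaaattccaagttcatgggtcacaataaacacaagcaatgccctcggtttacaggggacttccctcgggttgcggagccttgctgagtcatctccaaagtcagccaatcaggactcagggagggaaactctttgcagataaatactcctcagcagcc
The motif begins 104 and 85 bases before the start of Ifit1 and 213 bases before that of Cxcl10, and Isg15 holds 3 overlapping matches from 78 bases before its start. Of all 27025 genes with a window, 3.46% held this motif in the 250 bases before the start. RefSeq windows were matched for 57 of the 73 ISGs (78.1%), which is below the 80% required here for a share over a list. Isg15 itself, which encodes a ubiquitin-like modifier, rose by 6.73 on the log2 scale, or 7.57 after the subtraction.

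Antigen presentation rose on the MHC class I side. Of 23 class I genes 16 were upregulated and 0 downregulated, with a median log2 fold change of 1.26, or 9 upregulated and a median of 0.75 with library totals only. The peptide transporter gene Tap1 had 22.3 and 26.9 CPM in GM-noTC and 216 and 225 CPM in GM-noTC-LPS, a change of 3.16 ± 0.077 on the log2 scale (adjusted p = 1.07e-19, edgeR), and the class I activator Nlrc5 rose by 2.61. H2-Q7 and H2-Q6 rose by 3.66 and 2.25, but as near copies of each other their split is uncertain. Of 12 class II genes only H2-Eb2 (2.39) and H2-Ob (1.19) were called. H2-Ab1, H2-Aa and Cd74, with log2 fold changes of 0.82, 0.59 and 0.81, did not pass the 2-fold limit, and the list median of 0.57 was 0.06 with library totals only. H2-Ob fell short of the limit with library totals only (0.69), and the call of H2-Eb2, on 9 steady state counts, was lost when single libraries were left out. Of 14 costimulatory and related ligands 10 were upregulated, with Cd40 rising by 6.79 ± 0.10 (8.94 after the subtraction), Cd69 by 6.09 ± 0.083 (7.37), and Cd80 and Cd86 by 3.06 and 2.58 on the log2 scale. The inhibitory ligand gene Vsir (VISTA) fell by 1.48.

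Effector genes rose in 25 of 33 cases and fell in 2, with a median log2 fold change of 2.35. Acod1 (ENSMUSG00000022126), for the enzyme that makes itaconate, had 83.1 and 87.03 CPM in GM-noTC and 5096 and 5142 CPM in GM-noTC-LPS, with a log2 fold change of 5.91 ± 0.054 (adjusted p = 1.91e-26, edgeR), or 6.53 after the subtraction. Nos2, for inducible nitric oxide synthase, had 4.53 and 5.10 CPM in GM-noTC and 355 and 427 CPM in GM-noTC-LPS, a change of 6.34 ± 0.11 on the log2 scale (adjusted p = 2.23e-22, edgeR), or 7.88 after the subtraction. Ptgs2, for the prostaglandin enzyme COX2, had 12.1 and 12.4 CPM in GM-noTC and 1792 and 1971 CPM in GM-noTC-LPS, with a log2 fold change of 7.26 ± 0.10 (adjusted p = 1.09e-23, edgeR), or 9.87 after the subtraction. The 3 enzymes were thus low at steady state and upregulated in both LPS libraries. The arginine transporter gene Slc7a2 rose from 531 and 532 CPM to 5141 and 5098 CPM (log2 fold change 3.27). Arg1, whose enzyme uses the same amino acid, had 275 and 275 CPM in GM-noTC and 207 and 165 CPM in GM-noTC-LPS, lower in both LPS libraries but not past the 2-fold limit (log2 fold change -0.56 ± 0.13, adjusted p = 7.54e-04, edgeR), and with library totals only it passed (-1.07). Plau, for urokinase, and Ptgs1, for COX1, fell by 1.91 and 1.01 on the log2 scale, and Ptgs1 was short of the limit in some alternatives, such as without GM-noTC replicate 1 or 2.

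Pattern receptors and inflammasome genes added to this program. Of 27 pattern receptor genes 11 were upregulated and 1 was downregulated, led by Clec4e (Mincle), which rose by 5.98 ± 0.074 (6.62 after the subtraction), Nod2 (4.20), Fpr1 (3.96) and the scavenger receptor gene Marco (3.81). Tlr2 and Tlr3 rose by 2.59 and 3.20 on the log2 scale, and Tlr5, Tlr6, Tlr8, Tlr9, Tlr12 and Tlr13 were not called. Of 27 inflammasome and cell death genes 15 were upregulated and 0 downregulated, with Nlrp3 at 2.97 ± 0.056 (adjusted p = 1.05e-21, edgeR) and Casp4, whose caspase binds cytosolic LPS, at 3.83 ± 0.083 (adjusted p = 1.59e-20, edgeR). The survival genes Cflar and Birc3 rose by 3.45 and 2.42, and Pycard, for the adaptor ASC, did not reach the limit (-0.99) except with library totals only. Mefv, for pyrin, which is on no list, had 2 counts over both steady state libraries and 12.9 and 12.7 CPM upon LPS challenge, a ratio of 330 with a 95% counting interval from 90.8 to 2728.

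Several transcription factors of the macrophage lineage fell. Of 35 lineage factors and macrophage receptors 7 were upregulated and 9 downregulated, with a median log2 fold change of 0.16, or -0.35 with library totals only, which left 0 upregulated and 12 downregulated. Cebpa (ENSMUSG00000034957), the myeloid factor C/EBPα, had 122 and 122 CPM in GM-noTC and 12.4 and 11.7 CPM in GM-noTC-LPS, a change of -3.34 ± 0.068 on the log2 scale (adjusted p = 5.08e-21, edgeR). Klf4, a monocyte factor, had 71.9 and 70.6 CPM in GM-noTC and 5.83 and 7.89 CPM in GM-noTC-LPS, and its log2 fold change was -3.37 ± 0.092 (adjusted p = 8.97e-19, edgeR). In both genes the LPS libraries were below both steady state libraries. Pparg (ENSMUSG00000000440), the lipid sensing factor downstream of GM-CSF, had 38.9 and 37.7 CPM in GM-noTC and 10.04 and 9.44 CPM in GM-noTC-LPS, and its log2 fold change was -1.97 ± 0.089 (adjusted p = 8.25e-15, edgeR). Runx1 and Rxra fell by 2.44 and 1.71, whereas Klf6, Klf7 and Zeb2 rose by 1.33, 1.40 and 1.12 but not past the limit with library totals only, and Spi1, for PU.1, was not called (0.22). The M-CSF receptor gene Csf1r had 819 and 837 CPM in GM-noTC and 729 and 800.3 CPM in GM-noTC-LPS and the mannose receptor gene Mrc1 had 584 and 554 CPM in GM-noTC and 539 and 532 CPM in GM-noTC-LPS, and neither was called (adjusted p = 0.0529, edgeR, and adjusted p = 0.301, edgeR). The GM-CSF receptor genes Csf2ra and Csf2rb, at 0.37 and -0.24, were not called either.

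Most genes listed as alveolar type and dependent on GM-CSF and PPARγ were not called, unlike Pparg. Of 24 tested, 6 were upregulated and 2 downregulated, the latter being Pparg and Clec10a (-1.28). Fabp4, Fabp5, Lpl, Plin2, Siglecf and Ear2 had log2 fold changes between -0.34 and 0.31 and were not called. Ccl22, Ccl17, Marco, Car4, Plet1 and the cystine transporter gene Slc7a11, with 4.84, 2.18, 3.81, 2.51, 2.37 and 3.87, were upregulated. Of these, Marco is also on the pattern receptor list and Slc7a11 on that of NRF2 and iron genes.

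Chemokine receptor genes moved in both directions. Of 16 chemokine receptor genes 8 were downregulated and 6 upregulated, with a median log2 fold change of -1.16. Cxcr4 (ENSMUSG00000045382), the receptor that retains cells in the bone marrow, had 55.2 and 60.1 CPM in GM-noTC and 1.71 and 1.96 CPM in GM-noTC-LPS, a change of -4.97 ± 0.12 on the log2 scale (adjusted p = 5.43e-20, edgeR). Ccr2, the monocyte receptor for CCL2, had 79.9 and 72.7 CPM in GM-noTC and 9.85 and 9.85 CPM in GM-noTC-LPS, and its log2 fold change was -2.95 ± 0.10 (adjusted p = 1.68e-17, edgeR). Both receptors were lower in the LPS libraries, while their counterpart Ccr7, which guides cells to lymph nodes, rose from 9.46 and 8.54 CPM to 61.1 and 62 CPM (log2 fold change 2.78). Ccrl2, an atypical receptor, rose by 5.28 ± 0.069. Ackr3 had 72 counts over both steady state libraries and 1 upon LPS challenge, a ratio of 61.0 with a 95% counting interval from 10.6 to 2442. Ccr6 went from 23 to 2 counts, a ratio of 9.63 with a 95% counting interval from 2.38 to 84.3, and its call was lost with DESeq2 on all 16 libraries. Outside the chemokine receptors, Cnr2, for the cannabinoid receptor of immune cells, had 55.7 and 52.1 CPM in GM-noTC and 0.995 and 1.09 CPM in GM-noTC-LPS, a change of -5.68 ± 0.12 on the log2 scale (adjusted p = 7.97e-21, edgeR). Ankrd63, for an ankyrin repeat protein, had 17.9 and 15.97 CPM in GM-noTC and 0.379 and 0.137 CPM in GM-noTC-LPS, and its log2 fold change was -6.02 ± 0.29 (adjusted p = 3.48e-14, edgeR). The interleukin 6 receptor gene Il6ra fell by 3.85, the activating receptor gene Cd300lb by 4.10 and the G protein coupled receptor gene Gpr146 by 3.90 on the log2 scale.

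**Figure D3:**
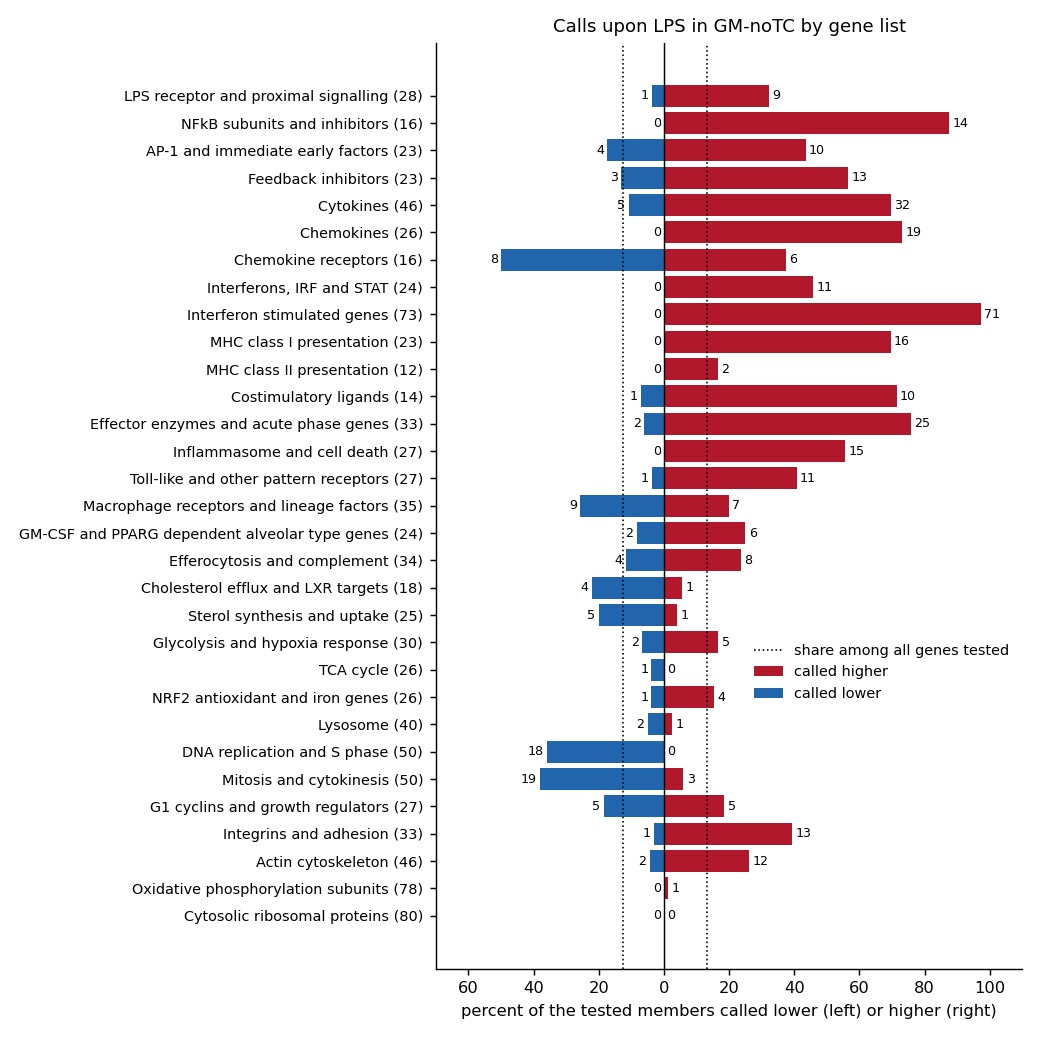
Share of the tested members of 31 gene lists that were downregulated (left, blue) or upregulated (right, red) in GM-noTC cells upon LPS challenge, in percent, with the number of genes at each bar and the number tested in brackets. Dotted lines mark the shares among all genes, 12.6% and 13.1%, and the ISG bar reaches 71 of 73 genes while the DNA replication bar runs to the left with 18 of 50.

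Some lipid genes fell. Of 18 cholesterol efflux and LXR target genes 4 were downregulated and 1 was upregulated. Among all genes tested 12.6% were downregulated and 13.1% upregulated, and these small lists do not stand far from such shares. Abcg1 (ENSMUSG00000024030), for a cholesterol exporter, had 558 and 561 CPM in GM-noTC and 116 and 125 CPM in GM-noTC-LPS, a change of -2.22 ± 0.058 on the log2 scale (adjusted p = 4.10e-19, edgeR). Abca1, for the other main exporter, had 135 and 136 CPM in GM-noTC and 355 and 364 CPM in GM-noTC-LPS, with a log2 fold change of 1.41 ± 0.10 (adjusted p = 1.89e-11, edgeR), which fell short of the 2-fold limit with library totals only (0.90). The exporters thus moved in opposite directions with TMM scaling. Scd2, for a fatty acid desaturase, had 1074 and 1009 CPM in GM-noTC and 279 and 267 CPM in GM-noTC-LPS, a change of -1.93 ± 0.084 on the log2 scale (adjusted p = 4.04e-15, edgeR), and Elovl6 and Fasn fell by 2.44 and 1.25. Of 25 sterol synthesis genes 5 were downregulated (9 with library totals only, 3 without GM-noTC replicate 1), led by Acat2, Lss and Mvd, which fell by 1.72, 1.31 and 1.23. Idi1 was upregulated (1.07, or 0.56 with library totals only, where the call was lost). The phosphatidate phosphatase gene Lpin1 fell by 4.21 and Soat1, for the enzyme that esterifies cholesterol, by 1.09 on the log2 scale.

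Energy metabolism changed in single genes rather than in pathways. Of 30 glycolysis and hypoxia genes 5 were upregulated and 2 downregulated (4 and 4 with library totals only), and the median of 0.05 was -0.46 with library totals only. Hif1a, the hypoxia factor, had 239 and 232 CPM in GM-noTC and 1011 and 1085 CPM in GM-noTC-LPS, with a log2 fold change of 2.15 ± 0.068 (adjusted p = 1.20e-17, edgeR), and the hexokinase gene Hk2 and the transporter gene Slc2a6 rose by 1.27 and 2.51. Gapdh, Ldha and Slc2a1, at 0.27, 0.33 and 0.029, were not called, and the oxygen sensor gene Egln3 fell by 2.28. Of 26 genes of the TCA cycle only Idh1, whose enzyme works in the cytosol, was called. It had 586 and 592 CPM in GM-noTC and 254 and 250.4 CPM in GM-noTC-LPS, a change of -1.22 ± 0.048 on the log2 scale (adjusted p = 7.25e-16, edgeR). Of 78 oxidative phosphorylation subunits only the muscle isoform Cox6a2 was called, on 2 counts at steady state and 11 upon LPS challenge (ratio 6.24, 95% counting interval 1.36 to 57.9), and this call was lost with library totals only, with the 4 libraries alone in edgeR or DESeq2, and without GM-noTC replicate 2 or GM-noTC-LPS replicate 2. The list median was 0.19, or -0.32 with library totals only. Of 80 cytosolic ribosomal protein genes 0 were called in either direction (at most 2 in any alternative), and their median of 0.32 likewise became -0.19. Of 34 efferocytosis and complement genes 8 rose, among them the adenosine receptor gene Adora2a (5.82), complement factor B (Cfb, 4.50) and the C5a receptor gene C5ar1 (2.89), and 4 fell, among them C5ar2 (-2.78) and P2ry6 (-2.62). Of 26 NRF2 and iron genes 4 rose, led by Slc7a11 and with Txnrd1 at 1.68, and Osgin1 fell (-2.73), while Hmox1 (0.052) was not called. Of 40 lysosomal genes 1 rose and 2 fell, the cathepsin gene Ctsc (1.49, short of the limit with library totals only) against Sgsh (-2.34) and the lysosomal master regulator Tfeb (-3.36).

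Cell cycle genes fell in part. Of 50 genes of DNA replication and S phase 18 were downregulated and 0 upregulated, with a median log2 fold change of -0.71, or 32 downregulated and a median of -1.22 with library totals only. E2f2 fell by 3.83, Cdc6, which loads the replicative helicase, by 1.89, and the maintenance methyltransferase gene Dnmt1 by 1.81, while Pcna and Tyms, at 0.35 and 0.49, were not called. Of 50 mitosis and cytokinesis genes 19 were downregulated and 3 upregulated (36 and 1 with library totals only), with a median of -0.79. The mitotic kinesin gene Kif23 and the phosphatase gene Cdc25b fell by 2.47 and 2.12 on the log2 scale. The 3 that rose were Pttg1, for securin (2.50), Mad2l1, of the spindle checkpoint (1.23), and the proliferation marker Mki67. Mki67 had 316 and 300.2 CPM in GM-noTC and 869 and 862 CPM in GM-noTC-LPS, with a log2 fold change of 1.49 ± 0.090 (adjusted p = 1.89e-12, edgeR), which fell short of the 2-fold limit with library totals only (0.98). It stood apart from the other mitotic genes, such as Top2a (-0.59) and Cdk1 (-0.28), which were not called, although Top2a passed the limit with library totals only. Of 27 G1 cyclins and growth regulators 5 were upregulated and 5 downregulated (3 and 11 with library totals only). Myc fell by 2.38, Foxo3 by 2.29 and the stress gene Sesn1 by 3.30, whereas Ccnd2, for cyclin D2, had 86.9 and 81.2 CPM in GM-noTC and 747 and 725 CPM in GM-noTC-LPS and rose by 3.13 ± 0.077 (adjusted p = 1.26e-19, edgeR).

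Adhesion and actin genes rose in part. Of 33 integrin and adhesion genes 13 were upregulated and 1 was downregulated, the latter not in every alternative, with Vcam1 and Icam1, for leukocyte adhesion molecules, rising by 3.95 ± 0.12 and 3.50 ± 0.049 (adjusted p = 1.16e-17, edgeR, and adjusted p = 8.56e-24, edgeR), and Itga4 by 2.79 on the log2 scale. Fibronectin (Fn1) had 1106 and 1075 CPM in GM-noTC and 2330.4 and 2327 CPM in GM-noTC-LPS, a change of 1.09 ± 0.10 on the log2 scale, which fell short of the limit with library totals only (0.59). Of 46 actin genes 12 were upregulated and 2 downregulated (6 and 3 with library totals only). Marcksl1, for an actin regulating kinase substrate, rose by 5.68 ± 0.066 (6.33 after the subtraction), Fscn1, for fascin, by 4.14, and Plek, for pleckstrin, had 667 and 677 CPM in GM-noTC and 6951 and 6761 CPM in GM-noTC-LPS, and its log2 fold change was 3.35 ± 0.047 (adjusted p = 8.52e-24, edgeR). Actb and Actg1, at 0.89 and 0.85, were not called. Medians of 0.38 and 0.37 for adhesion and actin genes became -0.13 and -0.14 with library totals only.

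Markers of other cell types made up small sums beside those of macrophages. The sums in this paragraph are in CPM before TMM scaling. The TMM factors were 1.13 and 1.13 at steady state and 0.795 and 0.788 upon LPS challenge, so the direction of these sums need not hold with TMM scaling. The summed level of the dendritic cell markers was 93.8 and 97.0 CPM at steady state and 95.2 and 86.7 CPM upon LPS challenge, although 4 of 10 tested rose, among them Xcr1 (2.69), and 4 fell, among them Cd209a (-2.07). The neutrophil markers summed to 1050 and 1039 CPM and then 731 and 769 CPM, with S100a8, S100a9 and Camp upregulated and Cxcr2 downregulated. The median log2 fold change of their tested members was 0.52 with TMM scaling and 0.01 with library totals only. The calls of S100a8 and S100a9 were lost with library totals only, and those of Camp and Cxcr2, at under 1 CPM, when single libraries were left out. The mast cell and basophil markers summed to 29.8 and 30.7 CPM and then 73.2 and 76.9 CPM, and Hdc, for the histamine making enzyme, which rose by 4.86, was the member called. The fibroblast and stromal markers summed to 22.03 and 24 CPM and then 48.8 and 54.6 CPM, with Pdgfrb rising by 5.46 and Pdgfra by 3.04, and Col1a1 and Col3a1 at 0.034 and 0.14. The part of these cells in the changes above was not tested.

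To find out whether the dish changed the response, the LPS effect in GM-noTC cells was set against that in GM-TC cells by an interaction test. The comparison is between separate libraries. It found 24 genes with a higher log2 fold change on noTC dishes (0.192% of those tested) and 74 with a lower one (0.591%), where a smaller decrease also counts as higher. Of the upregulated DEGs on noTC dishes 1494 were also upregulated on TC dishes, which is 90.9% of the noTC and 89.3% of the TC DEGs, and of the downregulated DEGs 1246 were shared (78.8% and 78.6%). Cox6a2 and Gm14419, named after their values were seen, were the 2 genes called in opposite directions. Across all genes the log2 fold changes of the 2 dishes had a Pearson r of 0.870, a description over genes that are not independent replicates. The GM-TC steady state libraries stand apart, since 14 heart muscle markers summed to 54.8 and 28.8 CPM in them against 0.938 and 1.07 CPM in GM-noTC. Without GM-TC replicate 1, the library with the higher of these sums, the test called 151 genes as higher and 382 as lower on noTC dishes, and leaving out any other of the 8 libraries gave 7 to 45 and 43 to 65.

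The 74 genes with a lower log2 fold change differed at steady state. Their level there was higher on noTC than on TC dishes, by a median of 1.07 on the log2 scale, while their level upon LPS challenge differed by a median of -0.013. Cxcl10 had 29.3 and 26.9 CPM in GM-noTC and 0.353 and 0.685 CPM in GM-TC at steady state, and upon LPS challenge 3972 and 3922 CPM against 3758 and 3932 CPM. Il6 had 6.03 and 7.50 CPM against 0.303 and 0.201 CPM at steady state and 1957 and 1877 CPM against 1951 and 2085 CPM upon LPS challenge. In both genes the dishes overlapped upon LPS challenge and were far apart before it. The differences in log2 fold change (noTC minus TC) were -5.65 ± 0.17 for Cxcl10 (adjusted p = 2.74e-15, edgeR), -5.52 ± 0.37 for Il12b (adjusted p = 7.14e-09, edgeR) and -4.83 ± 0.37 for Il6 (adjusted p = 2.05e-08, edgeR). At steady state these genes were at 0.681%, 0.689% and 0.692% of their mean in the other libraries, close to the share that the subtraction takes away. Each was among the 15 genes from which that share was estimated, so this closeness was largely set in advance. After the subtraction their differences, which rest on few counts, were -0.35, -1.30 and -0.98, with adjusted p of 0.939, 0.813 and 0.880 in edgeR. For the same reason the loss of their calls is no independent result.

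After the subtraction 17 of the 98 genes passed the test, 10 higher and 7 lower on noTC dishes. Of the 81 that no longer did, the difference moved by more than 1.5-fold for 37 and by less for 44, such as Ptger2 with 0.87 ± 0.20 before and 0.87 after it (adjusted p = 0.0837, edgeR). Ccl2 (ENSMUSG00000035385), the monocyte attractant, had 111 and 107 CPM in GM-noTC and 44.8 and 58.1 CPM in GM-TC at steady state, and 1094 and 1103 CPM against 1180.3 and 1157 CPM upon LPS challenge. Its difference was -1.16 ± 0.11 (adjusted p = 9.40e-07, edgeR), and -1.11 after the subtraction (adjusted p = 8.15e-05, edgeR). Ccl7, its neighbour in function, differed by -1.43 ± 0.16 and -1.25 after the subtraction (adjusted p = 1.00e-03, edgeR). In both chemokine genes the steady state level was higher on noTC than on TC dishes, without overlap. Il1rn and C5ar1 also rose less and Etv5 fell more on noTC dishes. Ubash3b and Galnt2 had negative log2 fold changes on noTC (-0.38 and -1.10) and positive ones on TC dishes (0.10 and 0.49). The replicates of Galnt2 in GM-TC-LPS lay apart, at 38.6 and 23.3 CPM. After the subtraction the differences of these genes were between -1.58 and -0.44. Among the higher log2 fold changes on noTC dishes was that of Saa3, an acute phase gene, which differed by 1.004 ± 0.20 (adjusted p = 0.0175, edgeR), or 1.63 after the subtraction (adjusted p = 0.00173, edgeR). The call of Saa3 was lost without GM-noTC replicate 1, GM-noTC-LPS replicate 1, GM-TC replicate 2 or GM-TC-LPS replicate 1. Cxcl16, for a membrane bound chemokine, had 57.6 and 63.5 CPM and 97.3 and 106 CPM at steady state and 219.7 and 224 CPM and 234 and 232 CPM upon LPS challenge, on noTC and TC dishes, a difference of 0.68 ± 0.086 (adjusted p = 5.97e-05, edgeR). Gadd45b, Bcl2l11, Flrt3, Efnb2, Tnfaip2, Plekha1, Zfp36l1 and Cox6a2 make up the rest of the 10. Of these Plekha1 and Zfp36l1 fell less on noTC than on TC dishes, and Cox6a2, a heart and muscle isoform, was at 1.67 and 0.967 CPM in the GM-TC libraries that hold heart transcripts.

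**Figure D4:**
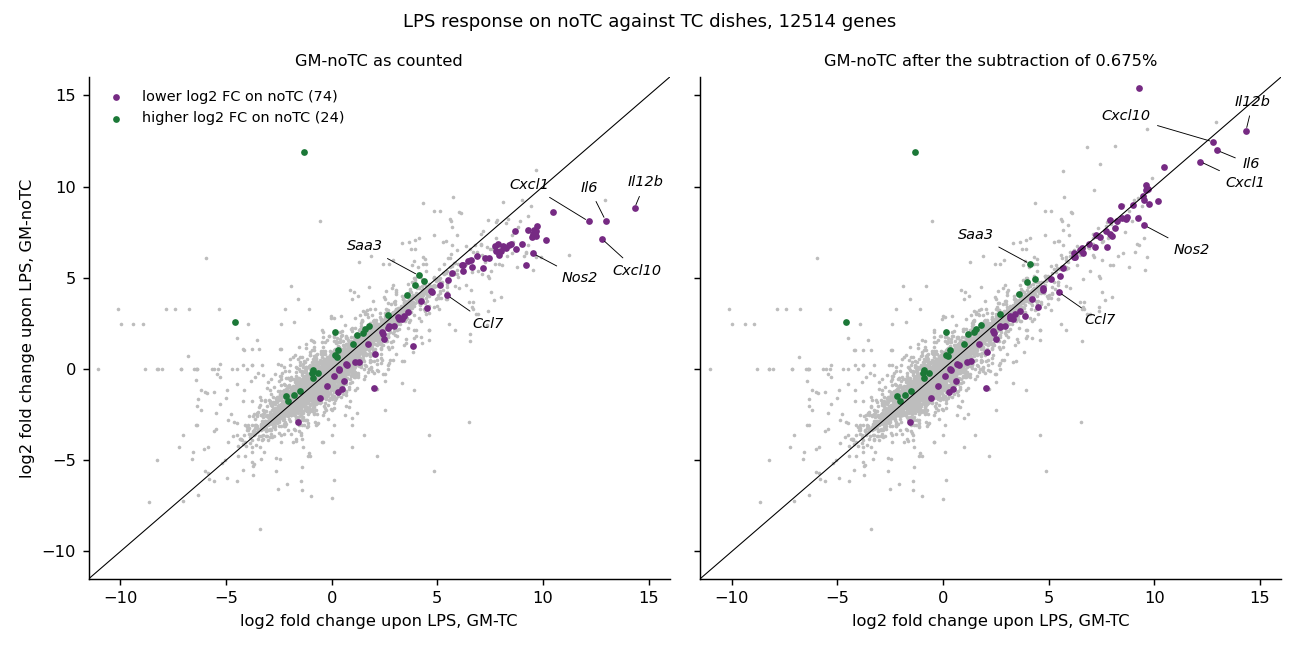
Log2 fold change upon LPS challenge in GM-TC (x axis) and GM-noTC (y axis) for 12514 genes, as counted (left) and after the subtraction of 0.675% from the GM-noTC libraries (right), with the 74 genes lower and 24 higher on noTC dishes in colour. On the left the strongest responses bend below the line of equal change, with Cxcl10 at 12.79 on TC and 7.14 on noTC dishes. On the right Cxcl10, which was among the genes that set the subtracted share, reaches 12.45.

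The LPS response differed in far more genes between GM and M cultures than between dishes. Per the study's methods these cultures also differed in factor dose (20 and 50 ng/ml) and in seeding density, which cannot be told apart from the growth factor here. Comparing with M-noTC cells, 2110 genes had a higher (16.9%) and 2418 a lower log2 fold change (19.3%) in GM-noTC cells upon LPS challenge. With library totals only these numbers were 3753 and 1373, and after the subtraction 2088 and 2426. Shared with M-noTC cells were 1299 of the upregulated DEGs (79.0% of the GM and 65.5% of the M DEGs) and 1114 of the downregulated DEGs (70.5% and 54.6%), and the Pearson r across genes was 0.765. Of 73 ISGs 52 had a higher and 10 a lower log2 fold change in GM cells. Ifit1 rose by 7.40 in GM-noTC and 5.58 in M-noTC cells, a difference of 1.82 ± 0.071 (adjusted p = 1.55e-14, edgeR), or 3.50 after the subtraction. Irf7 rose by 5.22 and 2.98, a difference of 2.25 ± 0.14 (adjusted p = 2.66e-11, edgeR), or 2.85 after the subtraction. Effector genes, chemokines and inflammasome genes leaned to the other side, with 3 higher and 23 lower of 33, 3 and 15 of 26, and 5 and 18 of 27. Nos2 rose by 6.34 in GM-noTC and 8.76 in M-noTC cells, a difference of -2.42 ± 0.19 (adjusted p = 7.50e-10, edgeR), or -3.16 after the subtraction. For Tnf (6.88 and 6.80) and Il6 (8.14 and 8.0) the differences of 0.083 ± 0.10 and 0.14 ± 0.18 did not pass the test (adjusted p = 0.558, edgeR, and adjusted p = 0.603, edgeR). After the subtraction they were 1.04 for Tnf, which then passed (adjusted p = 2.20e-05, edgeR), and 1.12 for Il6 (adjusted p = 0.289, edgeR), and with library totals only Tnf also passed (0.30, adjusted p = 0.0126, edgeR).

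Several regulators responded differently in GM and M cells. Klf4 fell by 3.37 in GM-noTC cells but was 19.7 and 19.1 CPM and then 27.9 and 27.6 CPM in M-noTC cells, a difference of -3.89 ± 0.12 (adjusted p = 6.18e-16, edgeR). Egr2 and Fos also fell more in GM cells, with differences of -2.54 ± 0.14 and -2.40 ± 0.20 (adjusted p = 2.07e-12, edgeR, and adjusted p = 1.81e-09, edgeR). Tlr4 was 192 and 192 CPM and 172 and 173 CPM in M-noTC cells, and its decrease was larger in GM cells, with a difference of -0.88 ± 0.092 (adjusted p = 8.52e-08, edgeR). Mki67 had 763 and 741 CPM and 875 and 874 CPM in M-noTC cells, so its rise was larger in GM cells by 1.27 ± 0.13 (adjusted p = 3.57e-08, edgeR). Socs3 rose by 4.19 in GM and by 7.85 in M cells, a difference of -3.66 ± 0.11 (adjusted p = 2.15e-16, edgeR), or -5.04 after the subtraction. It reached 476 and 498 CPM and 665 and 680.2 CPM but started from 26.5 and 26.8 CPM and 3.30 and 2.62 CPM. Cish, a STAT5 target that GM-CSF induces, started from 59.8 and 60.7 CPM in GM and 0.539 and 0.557 CPM in M cells and reached 202 and 211 CPM and 63.1 and 64.2 CPM, a difference of -5.07 ± 0.16 in log2 fold change (adjusted p = 5.51e-16, edgeR), or -7.33 after the subtraction. For both genes the smaller rise in GM cells thus went with a higher steady state level.

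Among the largest differences between GM and M cells, Mycl, a MYC family gene, had 5.01 and 4.03 CPM and 6.21 and 5.66 CPM in GM cells but 0.438 and 0.302 CPM and 86.5 and 85.9 CPM in M cells (-7.49 ± 0.22, adjusted p = 1.67e-16, edgeR). Lipg, for endothelial lipase, had 1.85 and 1.69 CPM in GM-noTC-LPS and 263 and 250.4 CPM in M-noTC-LPS (-7.40 ± 0.50, adjusted p = 1.06e-10, edgeR). Both genes were thus strongly induced in M cells and far less in GM cells. In the other direction, Slc1a2, for a glutamate transporter, had 18.3 and 17.8 CPM in GM-noTC-LPS and 0.257 and 0.249 CPM in M-noTC-LPS (5.97 ± 1.06, adjusted p = 1.11e-04, edgeR). This difference rests on 2 and 2 counts in GM-noTC, 2 and 3 in M-noTC and 5 and 5 in M-noTC-LPS. Ereg had 48.1 and 47.5 CPM in GM-noTC-LPS and 0.103 and 0.349 CPM in M-noTC-LPS. Ccl1 had 30.4 and 19.5 CPM and 0.103 and 0.0499 CPM, and Mylk, for myosin light chain kinase, 13.6 and 10.5 CPM and 0.103 and 0.200 CPM. These 4 genes passed 10 CPM upon LPS challenge in GM cells only, and the differences of Ereg and Ccl1 were not called without M-noTC replicate 2. Gpr183, an oxysterol receptor gene, stayed at 9.29 and 8.43 CPM and 10.4 and 8.39 CPM in GM cells and went from 15.7 and 14.9 CPM to 0.513 and 0.549 CPM in M cells (4.91 ± 0.28, adjusted p = 6.77e-12, edgeR).

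**Figure D5:**
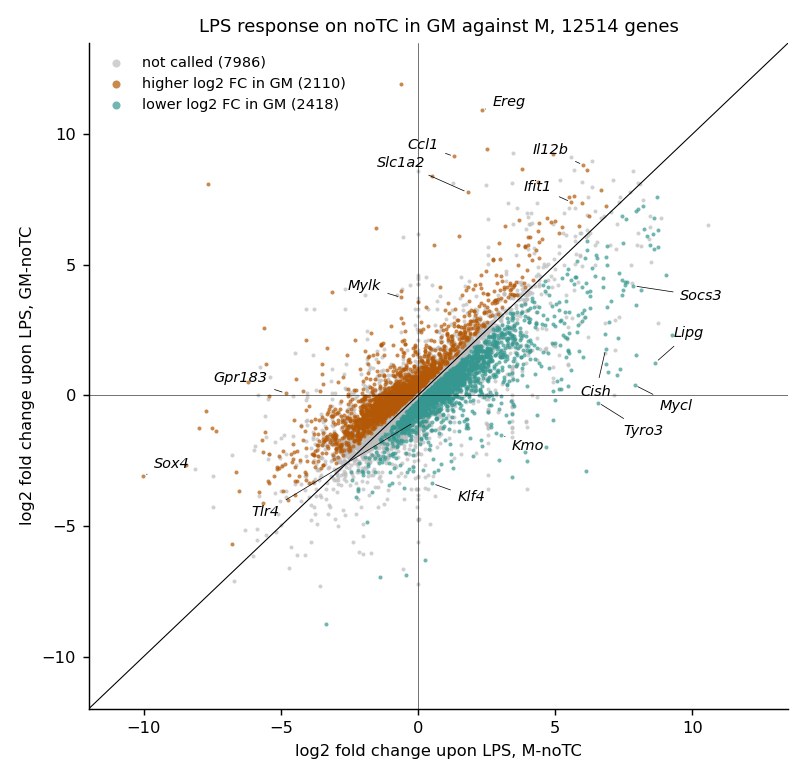
Log2 fold change upon LPS challenge on noTC dishes in M (x axis) and GM cells (y axis) for 12514 genes, with the 2110 higher (orange) and 2418 lower (teal) in GM cells by edgeR's interaction test. Mycl, Lipg and Tyro3 lie far to the right near 0 on the y axis, and Ereg, Ccl1 and Slc1a2 lie high on the left of the line of equal change.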

How the data were processed

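mRNA of 16 libraries (8 groups of 2) was enriched with oligo(dT) and sequenced by the authors. Per the labels and the study's methods, reads were cleaned with fastp 0.18.0, ribosomal reads were removed with Bowtie2 2.2.8, the rest was aligned with HISAT2 and assembled with StringTie 1.3.1, and the authors deposited RSEM expected counts per gene. These need not be whole, because RSEM divides reads that fit several genes, which matters for near copies such as Ifit, Oas, Gbp, Slfn, H2-Q and Bcl2a1 genes. The genome build, annotation version and strand setting are not given in the sources used here, so overlapping and antisense genes may share reads. Gene symbols are those of the deposited table.

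Counts were rounded and tested with edgeR 4.0.16 in R 4.3.3. Genes were kept with filterByExpr by group (12514 of 22287), libraries were scaled with TMM factors, 1 quasi-likelihood model was fitted to all 16 libraries, and p-values were adjusted by Benjamini-Hochberg over all tested genes. A DEG had an adjusted p under 0.05 and a fold change above 2, and a difference between responses had an adjusted p under 0.05 for the interaction. Errors of log2 fold changes are standard errors. The scripts were tested on simulated data. Ratios of genes with 1 to 3 counts in a group carry exact 95% binomial counting intervals. Lists are described by counts and medians, which stand against the values over all genes, with no test of the list.

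Genes and lists were chosen with earlier results of these data known. Named were DEGs without overlap at 10 CPM or more with the 12 largest and 12 smallest fold changes, the 10 largest gains and losses in CPM, 24 key genes, up to 4 genes per list of the 41 lists and up to 8 per direction of each interaction, and other list members where a list's description needed them.

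Alternatives were DESeq2 1.42.0 (on 16 libraries or on those compared), DESeq2 size factors, library totals only, no filter, only the libraries compared, unadjusted p, the replicate block, leaving out each library, and the subtraction. The main fit used no pairing by replicate number. The deviations of same-numbered samples correlated at -0.052 in these groups. With 2 libraries a group this cannot show whether same-numbered samples shared a source. Promoter windows are from RefSeq (GRCm38.p6) and were matched for 10014 of the 12514 tested genes (80.0%).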

Additional observations from a re-analysis of the deposited data

Results flagged for a closer look

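The genes below had a response to LPS that differed between groups in edgeR's interaction test (adjusted p under 0.05), and up to 8 per direction with the largest difference at 10 CPM or more are given. Values are differences in log2 fold change, and 0 would be an equal response. A positive difference can come from a larger increase or a smaller decrease.

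Between dishes (GM-noTC minus GM-TC), the log2 fold change was higher on noTC dishes for Gm20388 (13.23, an uncertain gene model), the acute phase gene Saa3 (1.004), the prostaglandin receptor gene Ptger2 (0.87), the stress genes Gadd45a (0.74) and Gadd45b (0.62), the mRNA decay factor gene Zfp36l1 (0.74), the palmitoyltransferase gene Zdhhc14 (0.69) and the chemokine gene Cxcl16 (0.68). Of these, Ptger2, Zfp36l1 and Zdhhc14 had negative values on both dishes, nearer to 0 on noTC. The log2 fold change was lower for Ptgs2 (-2.42), Ifi205 (-3.12), Nos2 (-3.19), Cxcl9 (-3.54), Cxcl1 (-4.07), Il6 (-4.83), Il12b (-5.52) and Cxcl10 (-5.65). After the subtraction, Saa3, Gadd45b, Zfp36l1 and Cxcl16 passed the test and the other 12 did not. For Gm20388, Ptger2, Gadd45a and Zdhhc14 the difference was then 13.23, 0.87, 0.75 and 0.69, nearly as before, with adjusted p between 0.0747 and 0.0971 (edgeR), while the other 8 moved to between -1.65 and 0.19. Several of these 8, such as Cxcl10, Il12b and Il6, were among the genes from which the subtracted share was estimated, so their move was largely set in advance. The sum of 14 heart muscle markers was 54.8 and 28.8 CPM in the GM-TC libraries against 0.938 and 1.07 CPM in the GM-noTC libraries, and its part in these differences was not tested.

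Between growth factors (GM-noTC minus M-noTC), the log2 fold change was higher in GM cells for Gm20388 (12.55), Ereg (8.60), Ccl1 (7.83), the transcription factor gene Sox4 (6.94), Slc1a2 (5.97), Klk1b1 (5.07), Gpr183 (4.91) and Mylk (4.35). Of these, Gpr183 and Klk1b1 were not DEGs in GM cells and fell in M cells, and Sox4 fell in both. The log2 fold change was lower for Hopx (-4.51), Kmo (-4.56), Rgs16 (-4.57), Cish (-5.07), the endothelial adhesion gene Sele (-6.40), the receptor kinase gene Tyro3 (-6.84), Lipg (-7.40) and Mycl (-7.49). Sox4 went to 2.75 and 1.83 CPM in GM-noTC-LPS and to 0 counts in both M-noTC-LPS libraries, so the size of its difference has no fixed bound. The same holds for Klk1b1, with 4 counts in each M-noTC library and 0 in both M-noTC-LPS libraries. Sele had 1 and 5 counts in GM-noTC and 1 and 3 in M-noTC, so the size of its difference is imprecise. After the subtraction the differences of Cish and Tyro3 were -7.33 and -8.70. Tyro3 had 1 and 0 counts in the M-noTC libraries, so the size of its difference is not fixed, before or after the subtraction. Klk1b1 was then not called (adjusted p = 0.0585, edgeR), and Ereg and Ccl1 had no counts left in GM-noTC. The differences of Ereg, Ccl1 and Gm20388 were lost without M-noTC replicate 2, that of Sele without GM-noTC replicate 2, and that of Klk1b1 without M-noTC replicate 1 or either M-noTC-LPS replicate. That of Gm20388 was also lost with DESeq2 on the libraries compared.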

How the results depend on the processing

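The counts of 1644 upregulated and 1581 downregulated DEGs stayed within 1.5-fold under every alternative except library totals only (1086 and 3320). Leaving out single libraries gave 1597 to 1650 and 1454 to 1532. Under the replicate block they were 1638 and 1578, and the block gave 22 higher and 75 lower log2 fold changes between dishes and 2085 and 2393 between growth factors, so it moved no count by over 1.5-fold. The differences between growth factors (2110 higher and 2418 lower in GM) became 3753 and 1373 with library totals only, and 1789 to 1891 and 1988 to 2170 without single libraries. The differences between dishes were the least stable. The 24 higher log2 fold changes on noTC became 87 without a filter, 10 with only the libraries compared, 10 after the subtraction, 533 with unadjusted p, and 7 to 151 without single libraries. The 74 lower ones became 140 without a filter, 7 after the subtraction, 574 with unadjusted p, and 43 to 382 without single libraries. The highest of these counts came without GM-TC replicate 1, and without GM-noTC replicates 1 and 2 the lower ones numbered 49 and 43. Ptgs2 reversed between dishes after the subtraction, from -2.42 to 0.19. The causes were not tested. For 161 named genes, 2054 of 2085 alternative LPS values kept direction and call, 27 lost the call, 4 gained it and 0 reversed. Most of the named genes were chosen for large changes in these same data, so this stability was largely set by that choice. The depth limits Il10, Cox6a2, Timd4, Ccr6 and Ifnb1, which rest on few counts. Differences between growth factors such as those of Slc1a2, Sele and Tyro3 are limited likewise.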

Other observations

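Between GM-noTC and M-noTC cells 29 genes were DEGs in opposite directions upon LPS challenge, and all 29 passed edgeR's interaction test. These were 11 genes upregulated in GM and downregulated in M cells and 18 with the reverse course, and 10 of the 29 reached 10 CPM in a group. Kmo, for an enzyme of tryptophan breakdown that is also used as a dendritic cell marker, went from 12.5 to 4.34 CPM in GM cells and from 0.577 to 4.75 CPM in M cells (group means), or -1.53 ± 0.18 and 3.03 ± 0.26 on the log2 scale (adjusted p of the difference 1.65e-10, edgeR). Akap7, for a kinase anchoring protein, went from 16.3 to 5.22 CPM in GM cells and from 3.09 to 11.8 CPM in M cells, or -1.64 ± 0.16 and 1.89 ± 0.17 on the log2 scale (adjusted p of the difference 6.26e-11, edgeR). In both genes the cultures were further apart at steady state than upon LPS challenge. Akap7 was named after its values were seen.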
